A study of Homo sapiens with 4 samples.

Results

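Heat shock proteins and their co-chaperones were examined in HepG2, a long-established line of human liver tumour cells, given in the labels as hepatoblastoma and as WT. The genes were chosen by symbol: the HSPA, HSPB, HSPD, HSPE, HSPH and HSP90A genes, the DNAJA, DNAJB and DNAJC genes, BAG1 to BAG6, and the heat shock factors HSF1, HSF2 and HSF4. HSPA5, DNAJB9, DNAJB11, DNAJC3 and DNAJC10, which serve the endoplasmic reticulum, were left out. This gave 73 of the 30863 genes in the table. Poly(A) RNA was sequenced from cells treated for 48 h with AMF (amentoflavone, a plant biflavonoid) and from cells that received the solvent DMSO, with 2 libraries in each group. The dose stands as 90 µM AMF in the protocol and as 80 µM Tub B in the study's design, so both compound and dose are uncertain, and AMF is used here as the name of the group. Separate cultures are not stated for the 2 libraries of a group. The spread between libraries behind the p-values may therefore be technical.

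Heat shock proteins bind unfolded or newly made proteins and keep them from clumping. The HSP70 proteins work in an ATP-driven cycle in which J-domain proteins, named DNAJ, deliver the client and stimulate ATP hydrolysis, and HSP110 and BAG proteins release ADP and so the client. HSP90 takes over later steps of folding, small heat shock proteins hold clients without ATP, and the HSP60 and HSP10 chaperonin folds proteins in mitochondria. In stressed cells the transcription factor HSF1 forms trimers and binds heat shock elements, inverted repeats of the unit GAA, in the promoters of the inducible genes. BAG3, working with HSP70 and the small heat shock protein HSPB8, can pass misfolded clients to autophagy.

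The libraries held 24226586 to 26966210 reads counted in genes. Mitochondrially encoded transcripts took 9.53% and 9.61% of the reads in AMF and 7.73% and 7.69% in DMSO. Of 6 hepatocyte markers, ALB had 122923 and 116049.9 in AMF, against 125341 and 117297 in DMSO (normalized counts), with overlap, and the other 5 lay lower in both AMF libraries. Of these, APOB had 135488 and 133706 in AMF, against 208340.0 and 211320.3 in DMSO, and AFP had 32725 and 31438 in AMF, against 50229 and 47689 in DMSO. APOA1 had 11666 and 10897 in AMF, against 17366 and 16405 in DMSO. SERPINA1 had 46384 and 38772 in AMF, against 57168 and 54376 in DMSO, and TTR had 541 and 556 in AMF, against 783 and 653 in DMSO. Both endothelial markers lay higher in AMF, where PECAM1 had 289 and 277, against 145 and 185 in DMSO, and VWF had 24.1 and 11.3, against 8.0 and 1.03 in DMSO. COL1A1 of fibroblasts had 5.57 and 8.24 in AMF, against 116 and 86.2 in DMSO, and CD3E of T cells had 1.86 and 3.09 in AMF, against 0 and 0 in DMSO. The part of these markers and of the mitochondrial share in the results was not tested. The 73 chaperone genes together took 1.32% and 1.35% of the reads in AMF and 1.20% and 1.16% in DMSO. A normalized count is a read count divided by the size factor of its library, so that 1 read equals 0.929 to 1.03. Changes are log2 differences of AMF minus DMSO in the normalized count plus 1, which understates the change of genes with few reads. A gene passed when its p, from limma-trend and adjusted by Benjamini-Hochberg over all 23828 genes tested, was below 0.05. limma-trend draws the spread of each gene toward that of all genes at a like level. A p therefore does not rest on that gene's own libraries alone. In bulk RNA, fewer cells that express a gene and less RNA per cell cannot be told apart.

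Of the 73 genes, 72 passed the filter of an average of 1 normalized count or more and were tested, and DNAJB8 was not. In AMF, 20 of them were higher, 9 were lower and 43 did not pass. Over all genes tested 31.8% were called, 15.6% higher and 16.2% lower. The median change was 0.08 over the chaperone genes and 0.04 over all genes tested. Without AMF replicate 1 or 2, limma-trend called 0 of all genes tested and so none of these, although 6575 and 6387 genes had an unadjusted p under 0.05. With voom, another limma test, 7 and 6 of the 20 were then still called higher, among them HSPA6, HSPA12A, HSPA1A, HSPA4, HSPH1 and BAG3 in both cases, and DNAJC5 lower. The calls were uneven by role. Outside the DNAJ genes 15 of 34 were higher and 3 lower, with a median change of 0.32, whereas 5 of 38 DNAJ genes were higher and 6 lower, with a median of 0.02. At least doubled and past the threshold were 7 chaperone genes, namely HSPA6, HSPA12A, HSPA1A, HSPA1B, HSPA1L, DNAJC12 and HSPB9, where 4.96% of all genes tested were. None was at least halved and past the threshold, and few of all genes were: 489 of the 23828 tested.

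Promoter sequences of selected chaperone genes are shown here, with any heat shock elements marked. Each runs from 250 bases before to 50 bases after an annotated start, 5′ to 3′ on the strand of the gene, from RefSeq on build GRCh38.p14. The reads were processed on hg19, per the submitters' processing notes, another build than that of these coordinates. Capitals mark the 2-unit element GAANNTTC or TTCNNGAA, each its own reverse complement and so the same on both strands. For genes with several annotated starts, the window with most of these elements is shown. HSPA6 lies at chr1:161524290-161524589 (plus strand), HSPA1A at chr6:31815293-31815592 (plus), DNAJB1 at chr19:14518348-14518647 (minus), HSP90AB1 at chr6:44247693-44247992 (plus) and HSPA12A at chr10:116849673-116849972 (minus).
HSPA6: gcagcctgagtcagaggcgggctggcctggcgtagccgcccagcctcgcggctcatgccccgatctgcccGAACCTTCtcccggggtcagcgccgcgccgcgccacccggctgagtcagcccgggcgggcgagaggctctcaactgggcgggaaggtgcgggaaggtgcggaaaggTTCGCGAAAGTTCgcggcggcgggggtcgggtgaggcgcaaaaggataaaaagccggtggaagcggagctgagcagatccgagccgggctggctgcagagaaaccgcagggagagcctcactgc
HSPA1A: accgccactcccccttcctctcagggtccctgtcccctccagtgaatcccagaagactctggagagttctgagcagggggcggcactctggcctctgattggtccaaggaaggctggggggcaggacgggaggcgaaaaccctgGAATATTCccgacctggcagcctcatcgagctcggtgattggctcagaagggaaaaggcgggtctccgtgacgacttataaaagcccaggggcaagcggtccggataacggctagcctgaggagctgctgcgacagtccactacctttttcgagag
DNAJB1: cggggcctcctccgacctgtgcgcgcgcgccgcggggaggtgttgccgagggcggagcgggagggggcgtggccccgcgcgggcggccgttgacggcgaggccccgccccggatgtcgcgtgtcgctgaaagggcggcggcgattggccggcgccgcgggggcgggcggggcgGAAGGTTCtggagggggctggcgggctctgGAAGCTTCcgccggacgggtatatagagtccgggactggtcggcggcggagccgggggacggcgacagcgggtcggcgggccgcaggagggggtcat
HSP90AB1: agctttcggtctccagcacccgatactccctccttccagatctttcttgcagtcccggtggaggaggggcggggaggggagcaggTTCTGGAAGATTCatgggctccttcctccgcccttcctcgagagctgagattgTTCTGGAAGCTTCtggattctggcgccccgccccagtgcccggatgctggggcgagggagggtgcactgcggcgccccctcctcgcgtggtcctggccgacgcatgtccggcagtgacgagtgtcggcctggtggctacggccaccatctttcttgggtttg
HSPA12A: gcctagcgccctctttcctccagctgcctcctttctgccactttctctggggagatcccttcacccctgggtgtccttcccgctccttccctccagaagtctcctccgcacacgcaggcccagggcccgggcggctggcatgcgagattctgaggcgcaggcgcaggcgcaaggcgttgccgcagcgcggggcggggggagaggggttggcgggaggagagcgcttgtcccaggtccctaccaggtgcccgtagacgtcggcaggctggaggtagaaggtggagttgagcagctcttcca

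The HSPA6 window held 3 matches, of which 2 overlap to form the longer element of 3 alternating units. HSPA1A had 1 match, 106 bases before its start, and DNAJB1 had 2. HSP90AB1, whose transcript changed by 0.15 on the log2 scale, had 4 matches in overlapping pairs, and HSPA12A, which changed by 2.90, had none. The other annotated windows of HSP90AB1 held 0 matches, those of DNAJB1 held 1 and 0, and that of HSPA12A held 0. A match describes these letters only and does not show binding.

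A RefSeq promoter was matched for 63 of the 73 genes. Of these 63, 22 (34.9%) held at least 1 element in a window, as did 16.2% of all 27305 genes with a promoter. The 3-unit element was found in 7 (11.1%), namely HSPA6, HSPA8, HSPD1, HSP90AA1, HSP90AB1, DNAJA1 and DNAJB6, and in 0.608% of all genes. Among genes higher in AMF 10 of 18 had the 2-unit element, against 1 of 8 among those lower and 11 of 36 among those that did not pass. The element of HSPA1A and that of HSPA1L are 1 and the same site, at chr6:31815437-31815444, which both windows cover on opposite strands. Higher genes with no match in their window include HSPA12A, HSPH1, HSPA4, BAG3, DNAJA2 and HSPE1. The search took exact matches within the windows only, so a missing match does not show that an element is absent. The matches of HSPD1, the neighbour of HSPE1, lie at chr2:197500068-197500085. They fall just outside the HSPE1 window, which starts at 197500129. These shares are descriptions, with no test.

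**Figure D1:**
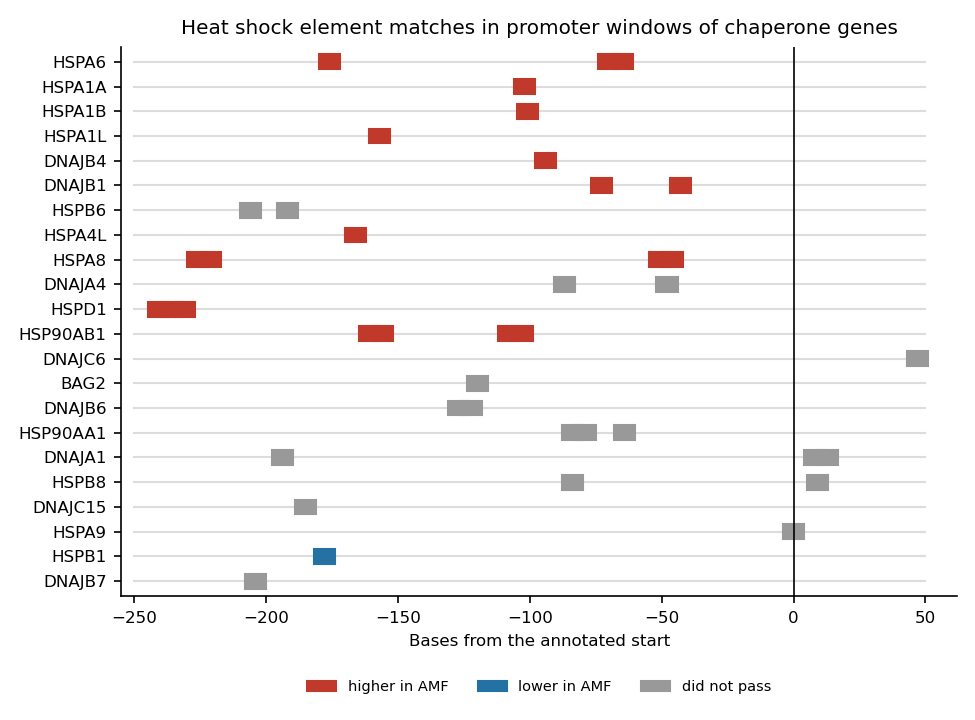
Positions of the 2-unit heat shock element (boxes, 8 bases wide) in promoter windows of the 22 chaperone genes that hold one, in bases from the annotated start, ordered by the change in AMF from highest to lowest. For genes with several annotated starts the window with most matches is drawn. Red boxes mark genes higher in AMF, the blue box HSPB1, which was lower, and grey boxes genes that did not pass.

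Among the HSP70 genes were the largest changes. Of 12 tested, 7 were higher, 0 lower and 5 did not pass, with a median change of 1.14. Over all genes tested, 15.6% were higher and 16.2% lower. The median lies between HSPA1L (1.16) and HSPA7 (1.12), and HSPA7 did not pass, on 5 reads in AMF and 1 in DMSO. HSPA6 encodes HSP70B′, a stress-inducible HSP70 that is hardly made in unstressed cells. It had 146 and 176 normalized counts in AMF, against 0 and 0 in DMSO. Both AMF libraries stood apart from DMSO, where no read was found, and the rise was at least 105-fold if 3 reads are taken as the floor of the pooled DMSO libraries (log2 change 7.33, SE 0.46, adjusted p = 2.24e-08). Of the 50-base windows of the HSPA6 transcript, 45.5% also occur in other genes, mostly in the near-copy HSPA7, so reads may be split between them, and HSPA7 had 3.71 and 1.03 normalized counts in AMF, against 0 and 1.03 in DMSO.

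HSPA1A and HSPA1B encode the same major inducible HSP70 in the major histocompatibility region of chromosome 6. HSPA1A had 2689 and 2771 normalized counts in AMF, against 984 and 759.7 in DMSO. HSPA1B had 2476 and 2531 normalized counts in AMF, against 961 and 711 in DMSO. In both genes the AMF libraries lay close together and far above DMSO, and DMSO replicate 1 lay above DMSO replicate 2. HSPA1A rose (log2 change 1.66, SE 0.091, adjusted p = 5.80e-09), and so did HSPA1B (log2 change 1.60, SE 0.10, adjusted p = 2.27e-08). Since 72.6% of the 50-base windows of HSPA1A occur in other genes, mostly in HSPA1B, the split between them is uncertain, and their sum was 5166 and 5302 in AMF, against 1944 and 1471 in DMSO. HSPA1L, their neighbour, best known from testis, had 72.4 and 65.9 normalized counts in AMF, against 30.0 and 30.8 in DMSO. It rose, with both AMF libraries above both DMSO libraries at a low level (log2 change 1.16, SE 0.25, adjusted p = 0.00227), on 142 reads in AMF and 60 in DMSO, a ratio of 2.28 with an exact 95% interval of 1.68 to 3.14. The call ended without DMSO replicate 1 (adjusted p = 0.0641) or 2 (adjusted p = 0.0631).

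HSPA12A and HSPA12B are distant members of the HSP70 family with an atypical ATPase domain. HSPA12A had 2738 and 2834 normalized counts in AMF, against 371 and 373 in DMSO. The libraries of each group nearly coincided, and this was the largest change among chaperone genes with reads in every library (log2 change 2.90, SE 0.065, adjusted p = 6.94e-13). HSPA12B had 481 and 520.2 normalized counts in AMF, against 284 and 251 in DMSO. It rose as well, with no overlap between the groups (log2 change 0.90, SE 0.10, adjusted p = 8.00e-06). Exons of HSPA12A overlap those of ENO4 and AC016825.1 in GENCODE, and the libraries keep no strand.

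HSPA8 encodes HSC70, the constitutive cytosolic HSP70, and shares 15.4% of its 50-base windows with other genes. It had 32954 and 34329 normalized counts in AMF, against 27996 and 24183 in DMSO. Its AMF libraries lay above both DMSO libraries, and the DMSO libraries stood 0.21 apart on the log2 scale (log2 change 0.37, SE 0.054, adjusted p = 8.05e-05). Without DMSO replicate 1 the change was 0.48, and without DMSO replicate 2 it was 0.26. Per kilobase of exon HSPA8 was the most abundant HSP70 transcript, with 12464 in AMF and 9666 in DMSO, while HSPA1A had 1099.5 in AMF and 351 in DMSO and HSPA6 67.9 in AMF and 0 in DMSO.

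The HSP70 genes of organelles and of the ribosome did not pass. HSPA9, the mitochondrial HSP70 mortalin, had 14345 and 14430.4 normalized counts in AMF, against 14294 and 15804 in DMSO (log2 change -0.06, adjusted p = 0.334). With voom its change was -0.14 without DMSO replicate 1. HSPA13, an HSP70 of microsomes, had 1747 and 1889 in AMF, against 1898 and 1925 in DMSO (log2 change -0.07, adjusted p = 0.384). HSPA14, which works at the ribosome with DNAJC2, had 459.6 and 517 in AMF, against 531 and 515 in DMSO (log2 change -0.10, adjusted p = 0.438). In HSPA9 and HSPA14 the groups overlapped, and in HSPA13 both AMF libraries lay just below DMSO. HSPA2, with 15 reads in AMF and 4 in DMSO, a ratio of 3.62 with an exact 95% interval of 1.15 to 15.0, and HSPA7 averaged under 10 normalized counts and did not pass either.

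**Figure D2:**
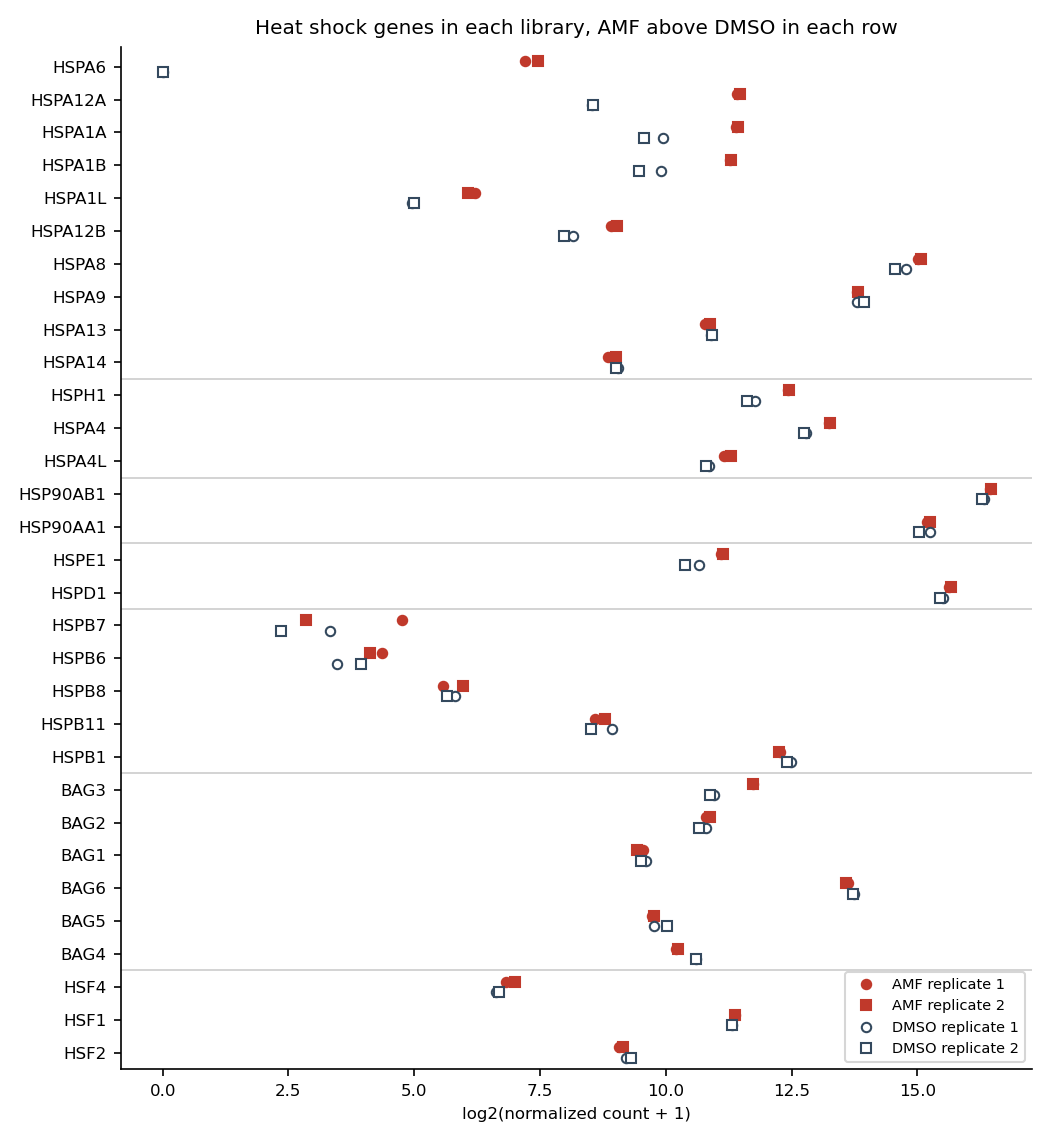
Levels of heat shock, BAG and heat shock factor genes averaging 10 or more normalized counts, as log2(normalized count + 1) on the horizontal axis, by role. Filled red symbols are AMF libraries and open symbols DMSO libraries, circles replicate 1 and squares replicate 2. HSPA6 stands at 0 in both DMSO libraries, and the AMF symbols of HSPA12A, HSPA1A, HSPA1B and BAG3 lie to the right of DMSO.

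All 3 genes of the HSP110 family, nucleotide exchange factors that reset HSP70, were higher, as were 15.6% of all genes tested. HSPH1, the heat-inducible HSP105, had 5496 and 5609 normalized counts in AMF, against 3481 and 3135 in DMSO. The groups did not overlap (log2 change 0.75, SE 0.053, adjusted p = 7.69e-08). HSPA4 had 9748 and 9902 normalized counts in AMF, against 7082 and 6830.4 in DMSO, again without overlap (log2 change 0.50, SE 0.041, adjusted p = 3.45e-07). HSPA4L had 2282 and 2509 normalized counts in AMF, against 1863 and 1778 in DMSO, with its AMF libraries higher by a smaller step (log2 change 0.39, SE 0.060, adjusted p = 1.25e-04). With limma-trend the HSPA4L call ended without DMSO replicate 1 or 2 (adjusted p = 0.0539 and 0.073).

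HSP90 moved little. HSP90AB1, the constitutive HSP90 beta, had 89063 and 89902 normalized counts in AMF, against 81650.4 and 79905 in DMSO. Both AMF libraries were above DMSO by a small step (log2 change 0.15, SE 0.032, adjusted p = 0.00228). HSP90AA1, the inducible HSP90 alpha, had 37341 and 38996 normalized counts in AMF, against 38969 and 33623 in DMSO, and the groups overlapped (log2 change 0.08, SE 0.053, adjusted p = 0.318). Its change was 0.18 without DMSO replicate 1 (0.18 with voom as well) and -0.03 without DMSO replicate 2. Per kilobase, HSP90AB1 stood at 30028 in AMF and 27107 in DMSO and HSP90AA1 at 9478 in AMF and 9013 in DMSO. Windows of 50 bases shared with other genes, mostly pseudogenes, made up 18.8% of HSP90AB1 and 17.5% of HSP90AA1.

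Both subunits of the mitochondrial chaperonin were higher, as were 15.6% of all genes tested. HSPD1, which encodes HSP60, had 50369.9 and 51751 normalized counts in AMF, against 46531 and 44593 in DMSO. The rise was small but free of overlap (log2 change 0.16, SE 0.035, adjusted p = 0.00213). Of the 50-base windows of HSPD1, 24.8% occur in other genes, mostly in HSPD1P1. HSPE1, which encodes the lid HSP10 and lies head to head with HSPD1, had 2201 and 2264 normalized counts in AMF, against 1607 and 1339 in DMSO, and rose by more (log2 change 0.61, SE 0.074, adjusted p = 1.76e-05). Exons of HSPE1 overlap those of HSPD1 and of the readthrough gene HSPE1-MOB4, and 27.2% of its windows are shared, so its level is uncertain. The HSPD1 call ended without DMSO replicate 2 (adjusted p = 0.0753).

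Of the 6 small heat shock genes tested, 1 was higher, 1 lower and 4 did not pass, near the 15.6% and 16.2% of all genes tested. HSPB1, which encodes HSP27, had 4969.7 and 4887 normalized counts in AMF, against 5743 and 5462 in DMSO. It fell, with both AMF libraries below both DMSO libraries (log2 change -0.18, SE 0.045, adjusted p = 0.00545), and without DMSO replicate 1 the call ended (adjusted p = 0.0793). HSPB8, the partner of BAG3, had 46.4 and 61.8 in AMF, against 55.0 and 49.3 in DMSO, with overlap (log2 change 0.04, adjusted p = 0.922). HSPB11, a part of the intraflagellar transport machinery, had 386 and 442 in AMF, against 484 and 363 in DMSO, and the DMSO libraries lay on either side of the AMF ones (log2 change -0.02, adjusted p = 0.919). HSPB6 had 19.5 and 16.5 in AMF, against 10.0 and 14.4 in DMSO (log2 change 0.54, adjusted p = 0.384). HSPB7 had 26.0 and 6.18 in AMF, against 9.0 and 4.11 in DMSO (log2 change 0.96, adjusted p = 0.296). Both are muscle-enriched genes at a low level here, and in HSPB7 the groups overlapped. The gene that passed upward was HSPB9, known from testis, with 29 reads in AMF and 6 in DMSO, a ratio of 4.66 with an exact 95% interval of 1.90 to 13.7 (log2 change 1.87, SE 0.57, adjusted p = 0.0203). Its call ended without DMSO replicate 1 (adjusted p = 0.115) or 2 (adjusted p = 0.116).

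Among J-domain proteins of types A and B, which work as general partners of HSP70, 3 of 14 tested genes rose and 2 fell. Over all genes tested, 15.6% rose and 16.2% fell. DNAJB1, the main heat-inducible HSP40, had 2745 and 2889 normalized counts in AMF, against 1834 and 1597 in DMSO. The AMF libraries were above both DMSO libraries (log2 change 0.72, SE 0.066, adjusted p = 1.01e-06). Its relative DNAJB4 had 474 and 506 normalized counts in AMF, against 284 and 244 in DMSO, and rose likewise (log2 change 0.89, SE 0.10, adjusted p = 1.11e-05). DNAJA2, a partner of HSC70 in refolding, had 4644 and 4597 normalized counts in AMF, against 3748 and 3959.8 in DMSO, and rose by a smaller step (log2 change 0.26, SE 0.047, adjusted p = 5.43e-04). DNAJA1, another type A partner, had 5465 and 5850.2 in AMF, against 5827 and 5009 in DMSO, with overlap (log2 change 0.07, adjusted p = 0.471). With voom the change of DNAJA1 was 0.17 without DMSO replicate 1, and that of DNAJA3, a mitochondrial J-protein, was 0.14 without DMSO replicate 2.

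DNAJB12 and DNAJB14, a pair of membrane proteins of the endoplasmic reticulum that work in protein degradation, were lower. DNAJB12 had 1270.3 and 1232 normalized counts in AMF, against 1470.5 and 1585 in DMSO (log2 change -0.29, SE 0.063, adjusted p = 0.00248). DNAJB14 had 922 and 903 normalized counts in AMF, against 1088 and 1105 in DMSO (log2 change -0.26, SE 0.065, adjusted p = 0.00582). In both the groups did not overlap. With limma-trend the DNAJB12 call ended without DMSO replicate 2 (adjusted p = 0.0765), and that of DNAJB14 without DMSO replicate 1 or 2 (adjusted p = 0.0627 and 0.0734). DNAJB6 and DNAJB2, which act on aggregation-prone proteins, had changes of 0.08 and -0.05 and did not pass, nor did DNAJA3, DNAJA4, DNAJB3, DNAJB5, DNAJB7 and DNAJB13. The lowest of these was DNAJB13, known from sperm flagella, with 12 reads in AMF and 30 in DMSO, a ratio of 0.386 with an exact 95% interval of 0.180 to 0.776 (log2 change -1.38, adjusted p = 0.0858).

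Type C J-domain proteins hold a J domain in otherwise unlike proteins with special tasks. Of 24 tested, 2 rose, 4 fell and 18 did not pass, where 15.6% of all genes tested rose and 16.2% fell. DNAJC9, a histone chaperone, had 443 and 468 normalized counts in AMF, against 864 and 757 in DMSO. It fell most among the chaperone genes that passed, with both AMF libraries well below DMSO (log2 change -0.83, SE 0.086, adjusted p = 3.76e-06). Exons of DNAJC9 overlap those of DNAJC9-AS1, FAM149B1 and MRPS16. DNAJC5, the cysteine string protein of secretory vesicles, had 4461 and 4451 normalized counts in AMF, against 5619.9 and 5748 in DMSO. The libraries of each group nearly coincided, AMF below DMSO (log2 change -0.35, SE 0.043, adjusted p = 1.93e-05).

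DNAJC13, an endosomal protein, had 1856 and 1785 normalized counts in AMF, against 2149 and 2040.0 in DMSO, and fell by a small step (log2 change -0.20, SE 0.056, adjusted p = 0.0124). DNAJC4 had 502 and 447 normalized counts in AMF, against 579.8 and 593 in DMSO, and fell (log2 change -0.31, SE 0.087, adjusted p = 0.0141). Without DMSO replicate 1 or 2 the calls of both ended, with an adjusted p of 0.127 and 0.0685 for DNAJC13 and of 0.144 and 0.174 for DNAJC4. DNAJC12, a co-chaperone of the aromatic amino acid hydroxylases, had 28.8 and 36.1 normalized counts in AMF, against 5.00 and 6.16 in DMSO. It rose, and was nearly silent in DMSO (log2 change 2.34, SE 0.44, adjusted p = 7.16e-04), on 66 reads in AMF and 11 in DMSO, a ratio of 5.79 with an exact 95% interval of 3.03 to 12.1. DNAJC22 had 1987 and 1924 normalized counts in AMF, against 1618 and 1558 in DMSO, and rose (log2 change 0.30, SE 0.056, adjusted p = 7.84e-04). The calls of DNAJC12 without DMSO replicate 1 (adjusted p = 0.0506) and of DNAJC22 without DMSO replicate 2 (adjusted p = 0.0516) missed the threshold narrowly.

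The other type C genes did not pass. They were DNAJC1, DNAJC2, DNAJC6, DNAJC7, DNAJC8, DNAJC11, DNAJC14, DNAJC15, DNAJC16, DNAJC17, DNAJC18, DNAJC19, DNAJC21, DNAJC24, DNAJC25, DNAJC27, DNAJC28 and DNAJC30. Their changes ran from -0.31 for DNAJC18 to 0.27 for DNAJC25. Among them are DNAJC6, the clathrin uncoating factor auxilin (log2 change 0.14, adjusted p = 0.334), and DNAJC19, a J-protein of the mitochondrial import motor (log2 change -0.22, adjusted p = 0.104). With voom and without DMSO replicate 1, the change of DNAJC19 was -0.35.

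**Figure D3:**
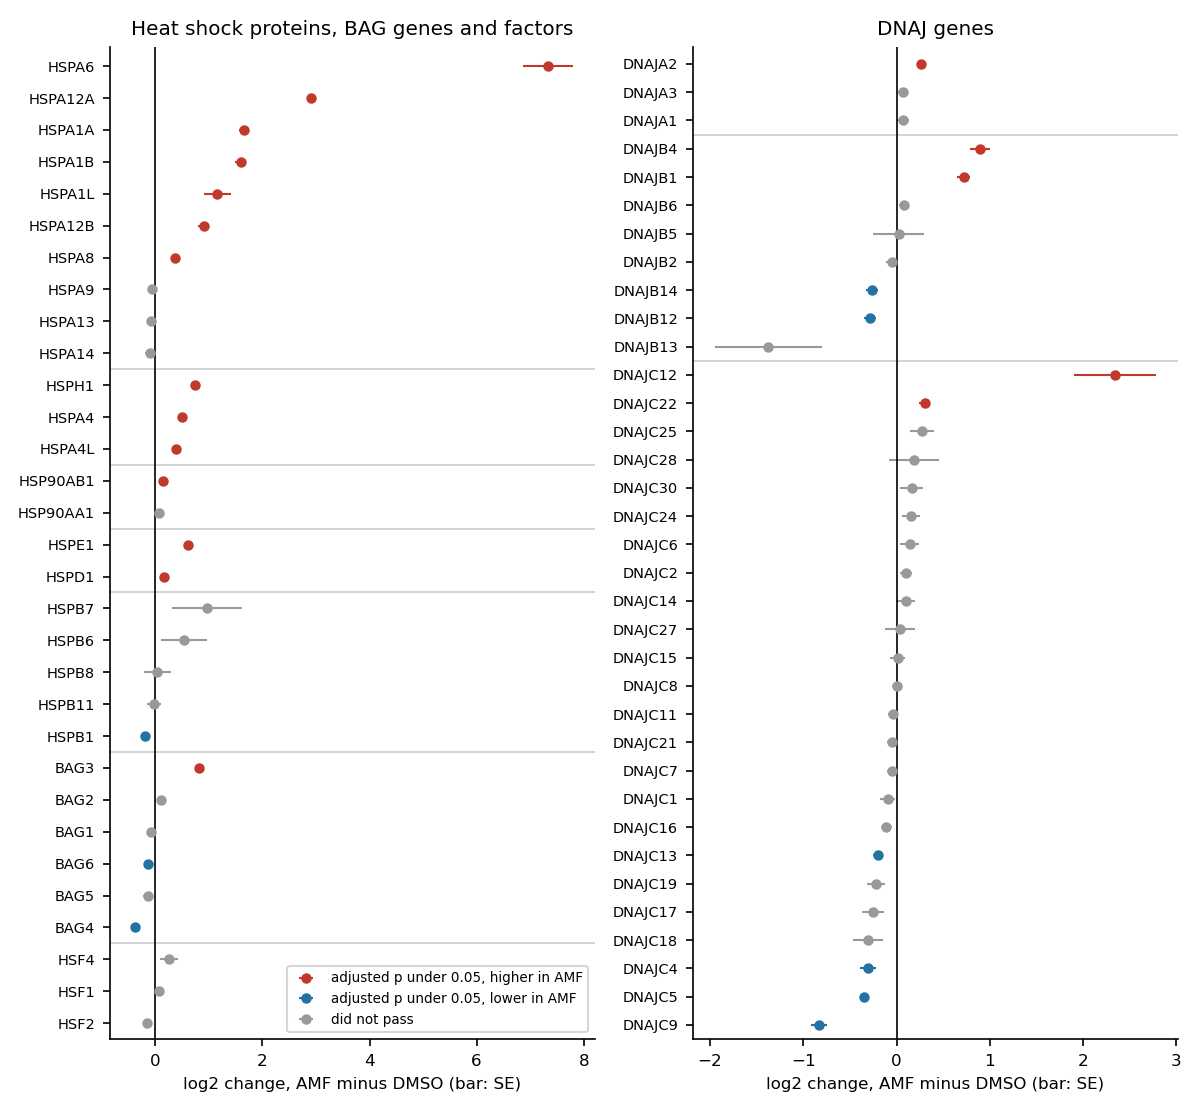
Log2 change of AMF minus DMSO with its SE (bars) for tested chaperone genes averaging 10 or more normalized counts, heat shock, BAG and HSF genes on the left and DNAJ genes on the right, each by role, with different horizontal scales. Red points passed and were higher in AMF, blue points passed and were lower, and grey points did not pass. HSPA6 at 7.33 and HSPA12A at 2.90 lie furthest to the right, and DNAJC9 at -0.83 is the lowest that passed.

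Of the 6 BAG genes, 1 was higher, 2 were lower and 3 did not pass, where 15.6% of all genes tested were higher and 16.2% lower. The higher share is near that of all genes tested. BAG3, heat-inducible and tied to selective autophagy of misfolded proteins, had 3412 and 3404 normalized counts in AMF, against 2000.2 and 1885 in DMSO. It rose, with the AMF libraries nearly equal and both above DMSO (log2 change 0.81, SE 0.052, adjusted p = 2.88e-08). BAG4, which silences the receptor TNFR1 in resting cells, had 1175 and 1216 normalized counts in AMF, against 1551 and 1559.5 in DMSO, and fell (log2 change -0.38, SE 0.060, adjusted p = 1.69e-04). Exons of BAG4 overlap those of LSM1, and exons of BAG6 overlap those of APOM. BAG6, which guides tail-anchored and mislocalised proteins, had 12575 and 12307 normalized counts in AMF, against 13736 and 13499.6 in DMSO. It fell by a small step without overlap (log2 change -0.13, SE 0.038, adjusted p = 0.0156), and this call ended without DMSO replicate 1 or 2 (adjusted p = 0.0965 and 0.0725).

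The remaining BAG genes did not pass. BAG1, an exchange factor that couples HSP70 to the proteasome, had 749 and 689 in AMF, against 784 and 731 in DMSO (log2 change -0.07, adjusted p = 0.52). BAG2, an inhibitor of the ubiquitin ligase CHIP, had 1775 and 1883 in AMF, against 1773 and 1607 in DMSO (log2 change 0.12, adjusted p = 0.194). BAG5 had 846 and 872 in AMF, against 866 and 1036 in DMSO (log2 change -0.14, adjusted p = 0.229). The groups overlapped in BAG1 and BAG5 and barely separated in BAG2. With voom and without DMSO replicate 1, the change was 0.18 for BAG2 and -0.27 for BAG5.

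Transcripts of the heat shock factors themselves did not pass. HSF1, the factor that drives the response, had 2669 and 2672 normalized counts in AMF, against 2553 and 2533 in DMSO (log2 change 0.07, SE 0.050, adjusted p = 0.318). HSF2, which can form trimers with HSF1, had 539 and 566 in AMF, against 589 and 637 in DMSO (log2 change -0.15, adjusted p = 0.195). HSF4, known from the lens, had 112 and 128 in AMF, against 98.0 and 102 in DMSO (log2 change 0.26, adjusted p = 0.268). In all 3 genes the groups did not overlap, with AMF above DMSO for HSF1 and HSF4 and below it for HSF2. HSF1 is controlled by phosphorylation and trimer formation, which are not seen in RNA.

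The DMSO libraries differed from each other in the genes that rose. Of the 16 higher genes averaging 100 or more normalized counts, 14 (87.5%) were higher in DMSO replicate 1 than in DMSO replicate 2, with a median gap of 0.12 on the log2 scale. Of all 11137 genes at that level, 52.4% were, with a median gap of 0.01. The gap reached 0.43 for HSPA1B and 0.37 for HSPA1A, and was 0.26 for HSPE1, whereas HSPA12A had a gap of -0.01. Without DMSO replicate 1 the change was 1.84 for HSPA1A, 1.81 for HSPA1B and 0.74 for HSPE1. Without DMSO replicate 2 it was 1.47, 1.38 and 0.47 for the same genes, each still past the threshold. The AMF libraries leaned the other way: 3 of the same 16 genes (18.8%) were higher in AMF replicate 1 than in AMF replicate 2, against 51.2% of all genes at that level, with a median gap of -0.04. This AMF lean was not limited to the genes that rose. Of 32 chaperone genes at that level that did not pass, 8 (25%) were higher in AMF replicate 1 and 18 (56.25%) in DMSO replicate 1. Of the 9 lower genes, 7 were higher in AMF replicate 1 and 4 in DMSO replicate 1. The part of these gaps in the results was not tested.

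**Figure D4:**
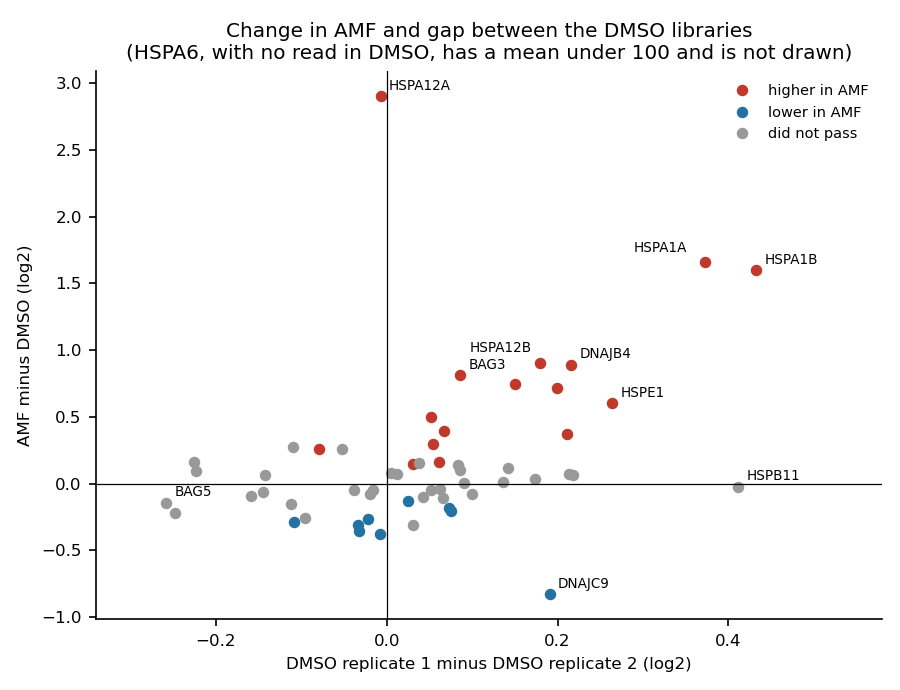
Change in AMF (vertical axis, AMF minus DMSO, log2) against the difference between the DMSO libraries (horizontal axis, replicate 1 minus replicate 2, log2) for chaperone genes averaging 100 or more normalized counts. HSPA1A, HSPA1B and HSPE1 combine a rise in AMF with a higher level in DMSO replicate 1, and HSPA12A rose by 2.90 with a gap of -0.01.

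Other protein-folding genes were taken from 5 lists, whose counts stand beside 15.6% higher and 16.2% lower over all genes tested. Of 20 co-chaperones of HSP70 and HSP90 that have no J domain, 13 were higher, 0 lower and 7 did not pass, with a median change of 0.25. TOMM34, which links HSP70 and HSP90 to mitochondrial import, had 3409.7 and 3449 normalized counts in AMF, against 2178 and 2129 in DMSO, without overlap (log2 change 0.67, SE 0.050, adjusted p = 1.18e-07). CDC37L1, related to the kinase co-chaperone CDC37, rose by 0.58 (adjusted p = 7.16e-04), and this call ended without DMSO replicate 1 (adjusted p = 0.0638). Of 15 subunits of the cytosolic chaperonin CCT and of prefoldin, which hands it actin and tubulin, 8 were higher, 0 lower and 7 did not pass, with a median of 0.25. PFDN2 rose by 0.58 (adjusted p = 5.32e-06) and PFDN6 by 0.38 (adjusted p = 2.94e-04).

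Of 12 mitochondrial chaperones and proteases, 2 were higher, 1 lower and 9 did not pass, with a median of 0.06. The higher share is near the 15.6% of all genes tested. The exchange factors of mitochondrial HSP70 moved apart. GRPEL1 had 1785 and 1861 normalized counts in AMF, against 1299 and 1224 in DMSO, and rose (log2 change 0.53, SE 0.060, adjusted p = 8.62e-06). GRPEL2 had 637 and 699 normalized counts in AMF, against 975 and 1146 in DMSO, and fell (log2 change -0.66, SE 0.085, adjusted p = 2.87e-05). The protease SPG7 rose by 0.30.

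Of 14 regulators of heat shock factors and other heat-inducible genes, 8 were higher, 1 lower and 5 did not pass. The list holds BAG3 and HSPA8, and without them 6 of 12 were higher, with a median of 0.17. It also shares FKBP4, CHORDC1 and AHSA1 with the co-chaperones above, of which FKBP4 and AHSA1 were among the higher genes of both lists, so these counts are not independent. DEDD2, a death effector domain protein, rose by 0.59 (adjusted p = 8.31e-05), and the polyubiquitin gene UBB fell (log2 change -0.15, adjusted p = 0.0225), a call that ended without DMSO replicate 1 or 2 (adjusted p = 0.133 and 0.0739). Of 10 chaperones of the endoplasmic reticulum, 6 were higher, 2 lower and 2 did not pass, with a median of 0.33. SDF2L1 (0.71) and DNAJB9 (0.67) rose, and the lectin chaperone CALR (-0.19) and the disulfide isomerase PDIA4 (-0.16) fell. The calls of CALR and PDIA4 ended without DMSO replicate 1 (adjusted p = 0.153 for CALR and 0.172 for PDIA4), and that of PDIA4 also without a filter on low values (adjusted p = 0.0533).

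**Figure D5:**
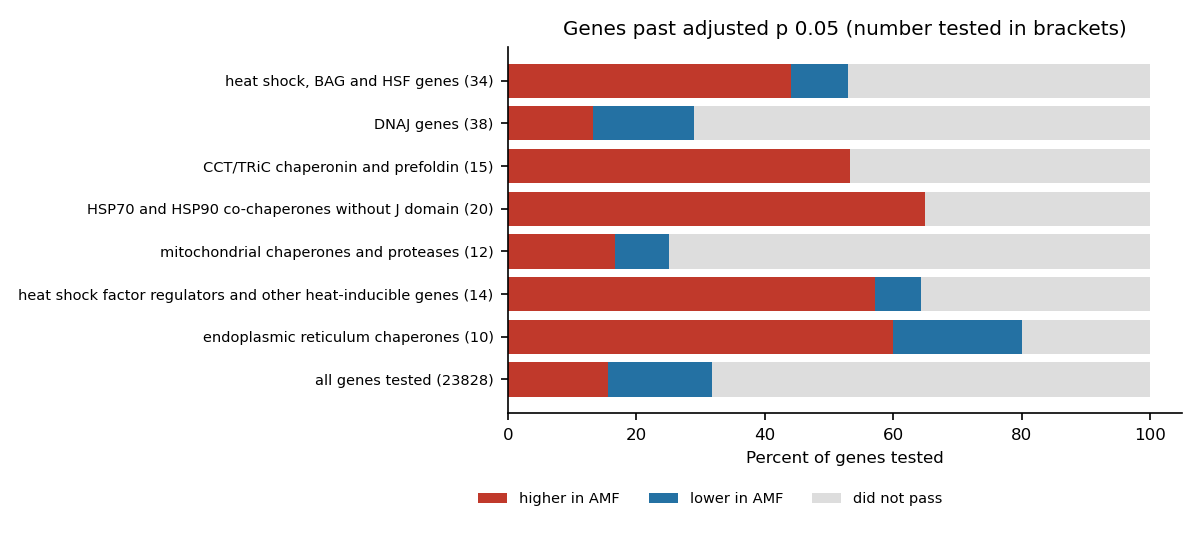
Share of tested genes that were higher in AMF (red), lower in AMF (blue) or did not pass (grey) at an adjusted p of 0.05, for the heat shock, BAG and HSF genes, the DNAJ genes, 5 lists of other protein-folding genes and all 23828 genes tested, with the number tested in brackets. The blue part is absent from the CCT and prefoldin list and from the co-chaperones without a J domain.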

How the data were processed

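RNA of HepG2 cells was sequenced with a kit that keeps no strand, per the labels' protocols. Per the submitters' processing notes, the tools included STAR 2.7.0 and featureCounts and the build was hg19. The sources used here name no annotation, filter or normalization. The deposited table holds log2 values of 30863 genes in 4 libraries, with 0 columns of other samples. Their values follow a variance-stabilizing curve over scaled counts, which is read from the values and stated nowhere. Inverting that curve gave whole reads, within 0.01, for 100% of values.

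limma 3.58.1 in R 4.3.3 (limma-trend, Benjamini-Hochberg adjustment, group as the sole term) was fitted to log2(normalized count + 1) of 23828 genes with a mean of at least 1 and tested on simulated counts. The deposited values are on a log2 scale and are not counts, so no count model was the main test. The members, lists and tests were chosen with earlier results of these data known. Values per library are given for members with a mean of at least 10, except DNAJ genes, where these are the called genes, and from each list up to 2 rises and 2 falls are named. HSPB9, HSPA2, HSPA7, DNAJA1 and other DNAJ genes are named outside that rule, after their values were seen. Exon lengths, overlaps and windows of 50 bases are from GENCODE release 29, on another build than hg19. Intervals (exact binomial, 95%) and the floor of 3 reads cover counting error only, since the reads carry no molecular identifiers. Alternatives were another pseudocount (0.1), filter, scale, scaling, test, the replicate number as a block and each library left out. Figures were drawn with matplotlib 3.10.9.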

Additional observations from a re-analysis of the deposited data

How the results depend on the processing

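All 29 calls among the chaperone genes kept their direction and stayed past the threshold with a pseudocount of 0.1, without a filter, on the deposited log2 values, with voom, with library totals as scaling and under a replicate block, and with a minimum mean of 10 all but HSPB9, which was then not tested. With all libraries, calls in the lists were 7 to 9 for CCT and prefoldin, 9 to 11 for the heat shock factor regulators and 7 to 8 for the endoplasmic reticulum, where PDIA4 lost its call without a filter. The other lists kept their counts of 13 and 3. The replicate block called 8157 genes, against 7578, with 20 and 9 chaperone genes higher and lower. In that block fit the spread of each gene came wholly from that of all genes at a like level. Calls under the block thus do not measure the gene's own spread. The libraries share a number only: the deviations of those numbered 1 correlated at 0.0238 over 11137 genes. Leaving out each library in turn, with limma-trend and with voom (voom chosen there after seeing the data), gave 0 to 22 chaperone genes higher, 0 to 12 lower and 0 to 6776 genes called in all. The calls were 0 to 9 for the CCT and prefoldin list, 0 to 14 for the co-chaperones, 0 to 4 for the mitochondrial list, 0 to 10 for the heat shock factor regulators and 0 to 9 for the endoplasmic reticulum chaperones. The value 0 arose with limma-trend without either AMF library, and for the mitochondrial list also with voom without AMF replicate 2. Voom then called 1379 and 1315 genes in all. The remaining AMF library was assumed to vary like DMSO, and likewise a remaining DMSO library like AMF. In both voom fits without a DMSO library, the spread of each gene came wholly from a value shared by all genes. Calls of those fits thus do not measure the gene's own spread. With voom, 6 chaperone genes that had not passed did so without DMSO replicate 1 (HSP90AA1, HSPA9, DNAJA1, BAG2, BAG5 and DNAJC19), as did DNAJA3 without DMSO replicate 2. The 3-unit element was in 7 promoters, against 22 for the 2-unit element, being the longer motif. The sign turned in these genes, none of them called, with log2 changes over the libraries left out of -0.0456 to 0.17 for DNAJA1, -0.00454 to 0.14 for DNAJA3, -0.23 to 0.86 for DNAJA4, -0.10 to 0.00301 for DNAJB2, -0.25 to 0.29 for DNAJB5, -0.0157 to 0.21 for DNAJC14, -0.0543 to 0.0818 for DNAJC15, -0.0579 to 0.13 for DNAJC27, -0.0400 to 0.0513 for DNAJC8, -0.0323 to 0.18 for HSP90AA1, -0.14 to 0.00947 for HSPA9, -0.23 to 0.18 for HSPB11 and -0.17 to 0.24 for HSPB8, and in HSPB11 also with library totals (0.000751). The cause was not tested. Tests that need deposited counts (edgeR and DESeq2) were planned for such a file only and were not run. With 2 libraries a group, genes with few reads, such as HSPB9 and DNAJC12, carry the widest intervals.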
